A study of Mus musculus with 2 samples.

Results

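The regions described here were the stretches of DNA between genes at which the phosphatase PHLPP1 gave a CUT&Tag peak both in interleukin-4-treated and in untreated mouse alveolar macrophages, and which lay near, but not at, a protein-coding gene. They were chosen as the autosomal regions of the IL-4 list that overlapped a region of the untreated list by at least 1 bp, overlapped no protein-coding gene body and lay 5 to 100 kb from the nearest protein-coding gene end (RefSeq genes, mm10). This gave 29226 of 225427 autosomal IL-4 regions, 12.96% (exact 95% interval 12.8% to 13.1%). They are called shared intergenic regions below, and each is described by its nearest gene. A nearest gene is a position only. No RNA and no histone mark was measured, so that enhancer activity, and which gene a region might act on, are not known from these data.

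The cells were wild-type primary alveolar macrophages obtained by lung lavage, and an antibody against PHLPP1 was used in both libraries. One library came from cells given IL-4 at 20 ng/ml for 4 h and the other from untreated (UT) cells. These groups follow the treatment label of each library, whereas the protocol text given with both libraries describes IL-4 stimulation, so that every difference below rests on that label. Each group held 1 library. No replicate error could therefore be measured, no difference between the groups could be tested, and the exact 95% intervals below cover counting error only. The sources used here give no control antibody, no number of mice, and no markers by which the purity of the cells could be checked. In a bulk library, a signal in more cells and more signal per cell cannot be told apart.

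PHLPP1 removes phosphate groups from AKT, the kinase that carries growth factor and insulin signals, and so acts as a brake on that pathway. CUT&Tag uses an antibody to bring a transposase to chromatin, and the DNA next to the bound protein is cut and tagged. Distal regulatory DNA in macrophages is commonly occupied by PU.1, C/EBP and AP-1 factors, and IL-4 acts on it through STAT6. Alveolar macrophages depend on GM-CSF, on PPARγ and on the C/EBPβ and BHLHE40/41 factors.

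The shared intergenic regions with a sequence at hand were those that held the start of a long non-coding RNA (lncRNA) gene, since RefSeq promoter windows of 300 bases were given but no genome. The windows printed next run from 250 bases before to 50 after the start (RefSeq, GRCm38.p6), 5′ to 3′ on the strand of the lncRNA. They are the named lncRNAs with the highest IL-4 fold enrichment (Mir22hg, Chaserr, Dancr, Snhg15 and Ptgs2os2), followed by a pair that hold the PU.1 pattern (4933432I03Rik, near the itaconate enzyme gene Acod1, and Gm31619), and were chosen after their values were seen. Capitals mark every match, on either strand, to one of 9 patterns spelled out after them.
Mir22hg, chr11:75461289-75461588, + strand: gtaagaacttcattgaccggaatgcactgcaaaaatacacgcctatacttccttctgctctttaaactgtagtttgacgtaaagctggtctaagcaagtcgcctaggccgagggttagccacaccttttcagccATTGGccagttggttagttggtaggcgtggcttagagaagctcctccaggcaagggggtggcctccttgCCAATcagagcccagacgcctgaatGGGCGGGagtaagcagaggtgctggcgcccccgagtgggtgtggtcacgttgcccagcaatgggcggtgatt
Chaserr, chr7:73558346-73558645, - strand: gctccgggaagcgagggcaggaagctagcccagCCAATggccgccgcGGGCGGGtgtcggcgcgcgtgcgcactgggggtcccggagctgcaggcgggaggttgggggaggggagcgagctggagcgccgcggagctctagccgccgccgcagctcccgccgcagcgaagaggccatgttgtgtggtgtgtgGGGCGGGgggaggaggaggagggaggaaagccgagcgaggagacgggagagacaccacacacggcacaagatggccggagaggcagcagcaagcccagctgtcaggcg
Dancr, chr5:74092810-74093109, + strand: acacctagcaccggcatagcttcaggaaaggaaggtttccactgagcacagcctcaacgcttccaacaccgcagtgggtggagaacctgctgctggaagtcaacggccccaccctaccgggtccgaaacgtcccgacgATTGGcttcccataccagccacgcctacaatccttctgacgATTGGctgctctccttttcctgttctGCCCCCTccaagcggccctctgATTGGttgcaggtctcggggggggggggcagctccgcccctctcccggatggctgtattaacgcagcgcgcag
Snhg15, chr11:6528711-6529010, - strand: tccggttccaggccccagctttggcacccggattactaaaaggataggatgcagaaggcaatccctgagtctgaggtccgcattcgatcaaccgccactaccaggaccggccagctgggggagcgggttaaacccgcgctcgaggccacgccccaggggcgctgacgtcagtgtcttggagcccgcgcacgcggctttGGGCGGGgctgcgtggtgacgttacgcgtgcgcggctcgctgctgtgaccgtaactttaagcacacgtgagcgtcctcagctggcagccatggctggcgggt
Ptgs2os2, chr1:150164899-150165198, - strand: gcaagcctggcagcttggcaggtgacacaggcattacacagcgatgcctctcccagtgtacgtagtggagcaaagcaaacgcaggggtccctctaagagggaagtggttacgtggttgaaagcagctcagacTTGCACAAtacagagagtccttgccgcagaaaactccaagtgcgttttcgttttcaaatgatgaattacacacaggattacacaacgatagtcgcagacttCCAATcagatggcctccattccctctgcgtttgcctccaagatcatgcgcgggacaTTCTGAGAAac
4933432I03Rik, chr14:103033754-103034053, - strand: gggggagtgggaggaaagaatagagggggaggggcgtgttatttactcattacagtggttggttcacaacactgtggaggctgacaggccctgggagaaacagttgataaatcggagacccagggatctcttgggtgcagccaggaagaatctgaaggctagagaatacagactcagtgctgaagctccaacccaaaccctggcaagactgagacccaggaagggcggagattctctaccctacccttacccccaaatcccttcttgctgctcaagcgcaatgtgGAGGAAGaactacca
Gm31619, chr2:167589432-167589731, - strand: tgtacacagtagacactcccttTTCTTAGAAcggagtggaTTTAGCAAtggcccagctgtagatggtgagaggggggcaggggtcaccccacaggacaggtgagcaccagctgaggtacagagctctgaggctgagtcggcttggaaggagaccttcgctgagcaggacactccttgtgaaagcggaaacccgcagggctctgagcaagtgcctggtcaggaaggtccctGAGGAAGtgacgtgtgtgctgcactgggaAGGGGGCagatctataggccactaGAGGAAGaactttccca
The patterns were PU.1 (GAGGAAG), AP-1 (TGANTCA), C/EBP (TTGCNNAA), STAT6 (TTC, any 4 bases, GAA), other STAT (TTCNNNGAA), CTCF (AGGGGGC), KLF (GGGCGGG), ETS (CCGGAAG) and NF-Y (CCAAT), where N is any base, and overlapping matches of different patterns were counted for each.

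In the 5 windows of named lncRNAs the matches were mainly KLF and NF-Y boxes, which are common in housekeeping promoters. Mir22hg held 1 KLF and 2 NF-Y matches, Chaserr 2 KLF and 1 NF-Y, Dancr 3 NF-Y and 1 CTCF, and Snhg15 a single KLF match. Ptgs2os2, named as an opposite-strand transcript of the prostaglandin synthase gene Ptgs2, held a C/EBP, a STAT and an NF-Y match. The PU.1 pattern stood at position 286 of the 4933432I03Rik window, counted from 1 at its 5′ end, and at positions 231 and 284 of the Gm31619 window. A match describes the letters and is not a measured binding site.

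The regions over these starts were strong in both libraries. At Chaserr, 16.5 kb from Chd2, the authors' fold enrichment over background was 10.9 with IL-4 and 7.38 without, and at Dancr it was 7.23 with IL-4 and 4.02 without. Snhg15 had 6.52 with IL-4 and 3.42 without, and Ptgs2os2 had 7.23 with IL-4 and 4.56 without. The region of 4933432I03Rik, 13.05 kb from Acod1, had 6.10 with IL-4 and 4.60 without. Mir22hg (7.31 with IL-4, 6.82 without) and Gm31619 (5.44 with IL-4, 5.60 without) had nearly equal fold enrichments in the libraries, and their local background with IL-4 was 1.84 and 1.80 times the constant one.

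A total of 344 lncRNA starts, of 316 genes, lay inside a shared intergenic region, which is 7.68% (6.92% to 8.50%) of the 4479 lncRNA starts at 5 to 100 kb from a protein-coding gene. The PU.1 pattern was in 22.7% (18.4% to 27.5%) of the windows of these starts, in 12.4% (11.4% to 13.5%) of the 3815 windows whose start lay in no region of either list, and in 13.4% of all promoter windows of the table. The KLF pattern was in 15.7% against 4.53%, CTCF in 9.01% against 4.19%, and ETS in 5.81% against 2.73%. All 3 were more common still over all promoter windows of the table, with KLF in 25.8%, CTCF in 10.7% and ETS in 9.004%. AP-1 (11.9% against 10.8%), C/EBP (14.8% against 12.5%), STAT6 (7.85% against 9.33%), STAT (9.59% against 9.67%) and NF-Y (34.9% against 37.5%) had overlapping intervals. The windows inside the regions were also richer in G and C, with a median of 53.3% against 47.0%, and in CpG, with a median of 6 against 3. The part of base composition in the pattern shares was not tested.

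**Figure D1:**
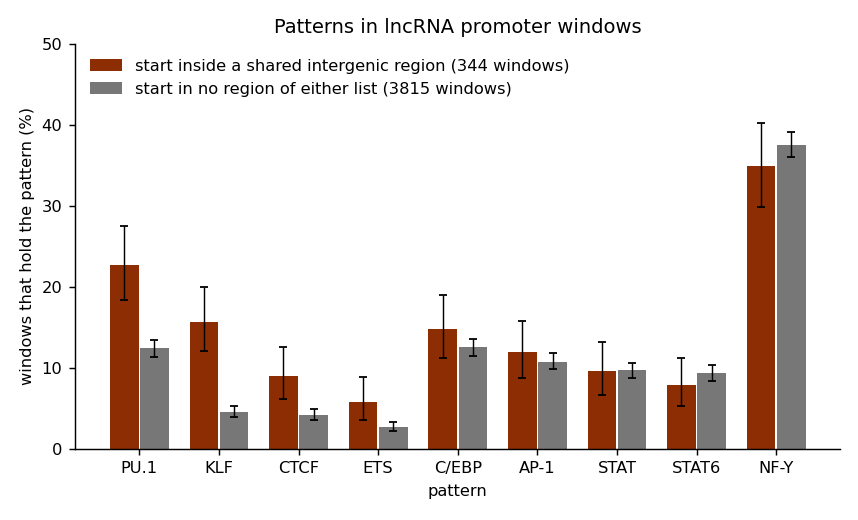
Share of 300-base lncRNA promoter windows (y axis, percent) that hold each of 9 patterns (x axis), for starts inside a shared intergenic region (dark bars) and for starts in no region of either list (grey bars), with exact 95% intervals. The PU.1 bars stand at 22.7% and 12.4%, while the AP-1 and STAT6 intervals overlap.

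Across all 29226 regions, PHLPP1 signal was modest in both libraries. The median fold enrichment was 2.32 with IL-4 and 2.25 without, the middle 50% of regions spanned 2.07 to 2.79 with IL-4 and 2.04 to 2.55 without, and the median width was 389 bp with IL-4 and 336 bp without. A fold of 5 or more was reached by 926 regions with IL-4 and by 349 without. The median −log10 q was 4.44 with IL-4 and 2.96 without, and the lowest was 0.6795 with IL-4 and 0.4327 without. The lists thus reached down to weakly called regions, and not every shared intergenic region is a confident peak. In 5469 regions, 18.7%, the −log10 q was at least 5 in both lists, which is called strong here. Over all shared autosomal regions 22.5% were strong. The rule required an overlap of these narrow regions, so that their closeness is in large part given by it. The overlap covered at least 50% of both regions in 22435 cases, 76.8%. The summits, the points of highest pileup, lay a median of 70 bp apart and within 100 bp in 61.4%. Over all shared autosomal regions these values were 68 bp and 62.3%.

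Overlap and distance chose the regions, and these shares are given as a description. Of the 66003 IL-4 regions that met the distance rule, 44.3% (43.9% to 44.7%) overlapped an untreated region, beside 45.6% of all autosomal IL-4 regions. In the other direction, 29528 of 46749 untreated regions at that distance, 63.2%, overlapped an IL-4 region. The nearest-gene set held 7896 of 20665 autosomal protein-coding genes, 38.2%, with a median of 2 regions each. Strong shared intergenic regions were nearest to 3342 genes, 16.2%. Of the 7896 genes, 2691 had 1 region and 599 had 10 or more.

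The distance to the nearest gene end was 28.7 kb at the median. The amount of sequence differs between distances, so numbers were divided by the sequence at each distance. All shared intergenic regions were almost evenly spread, with 47.4 per Mb at 5 to 10 kb, 46.9 at 10 to 20 kb, 47.2 at 20 to 50 kb and 44.7 at 50 to 100 kb. Strength changed this picture. Regions of IL-4 fold 5 or more numbered 2.21 per Mb at 5 to 10 kb and 0.877 at 50 to 100 kb, and their density at 5 to 20 kb was 2.31 times (1.93 to 2.78) that at 50 to 100 kb. The same quotient was 1.66 (1.54 to 1.79) at fold 3 to 5, and 0.935 (0.906 to 0.966) at fold under 3. Regions found only in the IL-4 list had a quotient of 1.27 (1.23 to 1.30), and regions found only in the untreated list 0.800 (0.771 to 0.830).

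**Figure D2:**
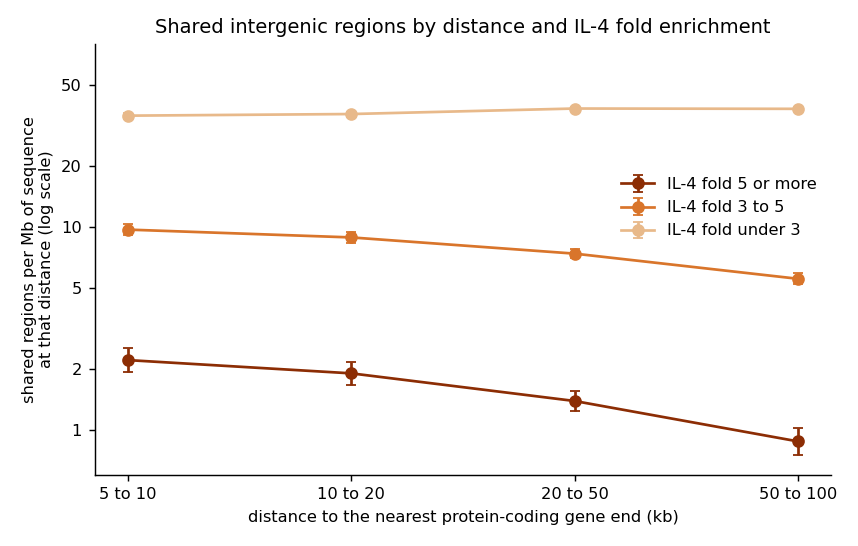
Shared intergenic regions per Mb of sequence (y axis, log scale) at each distance from the nearest protein-coding gene end (x axis, kb), for regions of IL-4 fold 5 or more, 3 to 5 and under 3, with exact 95% Poisson intervals. The strongest class falls to 0.877 per Mb at 50 to 100 kb against 2.21 at 5 to 10 kb, and the weakest class stays between 35.4 and 38.4.

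To set the libraries side by side, the pileup (the number of fragments stacked at the summit) with IL-4 was divided by the untreated pileup and by 1.14, the quotient of the constant backgrounds of the libraries. This depth-scaled ratio had a median of 1.08 over the shared intergenic regions, with quartiles of 0.937 and 1.26. It was at least 1.5 in 2882 regions, 9.86% (9.52% to 10.2%), while 13.6% of all shared autosomal regions were that much higher with IL-4. It was at most 1/1.5 in 209 regions, 0.715%, beside 0.653% of all shared autosomal regions. A region had to be called in both libraries to be counted, which leaves out the largest differences.

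The ratio was lower between genes than in them. Its median was 1.16 in 51205 shared regions of gene bodies, 1.16 in 6620 shared regions less than 5 kb outside a gene, and 1.01 in 15686 shared regions more than 100 kb away. Within the shared intergenic regions it was 1.12 at 5 to 10 kb, 1.10 at 10 to 20 kb, 1.07 at 20 to 50 kb and 1.05 at 50 to 100 kb. Among regions with an untreated fold of 3 or more, the median was 1.10 for shared intergenic regions, 1.36 for gene bodies, 1.29 for the flanks under 5 kb and 0.905 beyond 100 kb. At this untreated strength 18.6% of the shared intergenic regions were at least 1.5 times higher with IL-4, beside 26.8% of all shared autosomal regions.

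**Figure D3:**
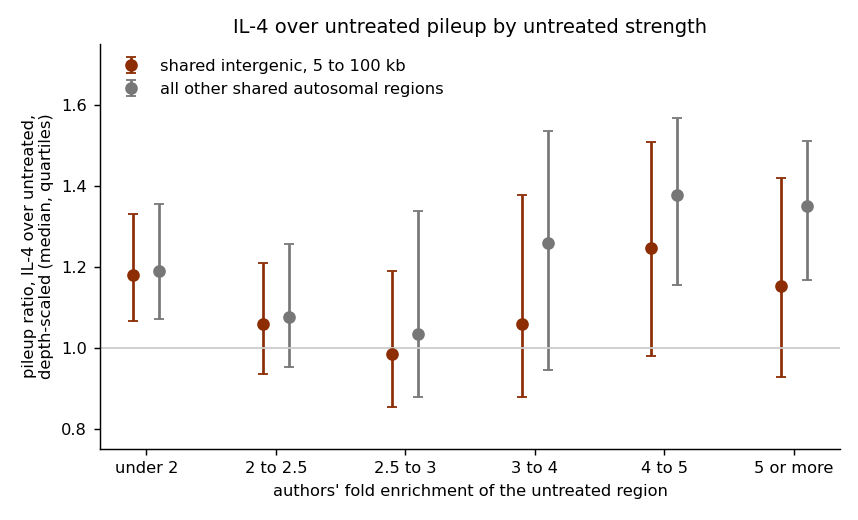
Depth-scaled pileup ratio, IL-4 over untreated (y axis), by the fold enrichment of the untreated region (x axis), for shared intergenic regions (left, brown) and all other shared autosomal regions (right, grey); points are medians and bars the quartiles. The shared intergenic medians lie between 0.984 at untreated fold 2.5 to 3 and 1.25 at fold 4 to 5, below the other regions in every class.

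The genes nearest to the regions were then read by 14 lists of cell type and pathway genes. Alveolar macrophage identity genes had the densest strong regions: 50 strong regions in their surroundings, 34.7 per Mb (25.7 to 45.7), beside 8.69 per Mb over all genes. Without Cebpb, which alone had 13, the density was 27.6. Counted over all shared intergenic regions, strong or not, the list had 71.4 (58.3 to 86.6) per Mb, beside 46.4 over all genes. By that count interferon targets had 73.0, lymphocytes 72.1 and lung epithelium 70.8, while IL-4 response genes had 38.3 and neurons and glia 37.2. NF-kB inflammatory genes had 17.99 (11.0 to 27.8) strong regions per Mb. The counts of strong regions were small for interferon targets, 20.3 (6.58 to 47.3), AP-1 and EGR factors, 16.3 (8.42 to 28.4), general macrophage genes, 13.5 (7.70 to 21.9), and genes active in all cells, 12.9 (3.51 to 33.0), so that their intervals took in the value of all genes.

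IL-4 response genes had 10.6 (6.50 to 16.4) strong regions per Mb, AKT, PI3K and PHLPP genes 8.09 (4.04 to 14.5) and lipid genes 8.16 (3.28 to 16.8), all near the level of all genes. AKT, PI3K and PHLPP genes came to 4.26 without Irs2, and lipid genes to 4.77 without Abcg1. Among the lists of other cell types, neurons and glia had 3.44 (1.12 to 8.03), an interval below the value of all genes. Lung epithelium had 3.54 (0.730 to 10.4), fibroblasts and endothelium had 8.003 (4.14 to 13.98), granulocytes 5.82 (0.70 to 21.0) and lymphocytes 13.2 (7.03 to 22.6), with intervals that took in that value. The median ratio, 1.08 over all shared intergenic regions, was 1.43 for alveolar macrophage genes, 1.41 for NF-kB genes, 1.39 for IL-4 response genes, 1.37 for genes active in all cells, 1.36 for lipid genes, 1.34 for granulocytes, 1.32 for AP-1 and EGR factors, 1.22 for interferon targets, 1.19 for general macrophage genes and 1.18 for AKT, PI3K and PHLPP genes. Without Cebpb the alveolar macrophage median was 1.40, below that of NF-kB genes. The median ratio was 1.10 for lymphocytes, 1.10 for neurons and glia, 1.05 for fibroblasts and endothelium and 1.03 for lung epithelium.

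**Figure D4:**
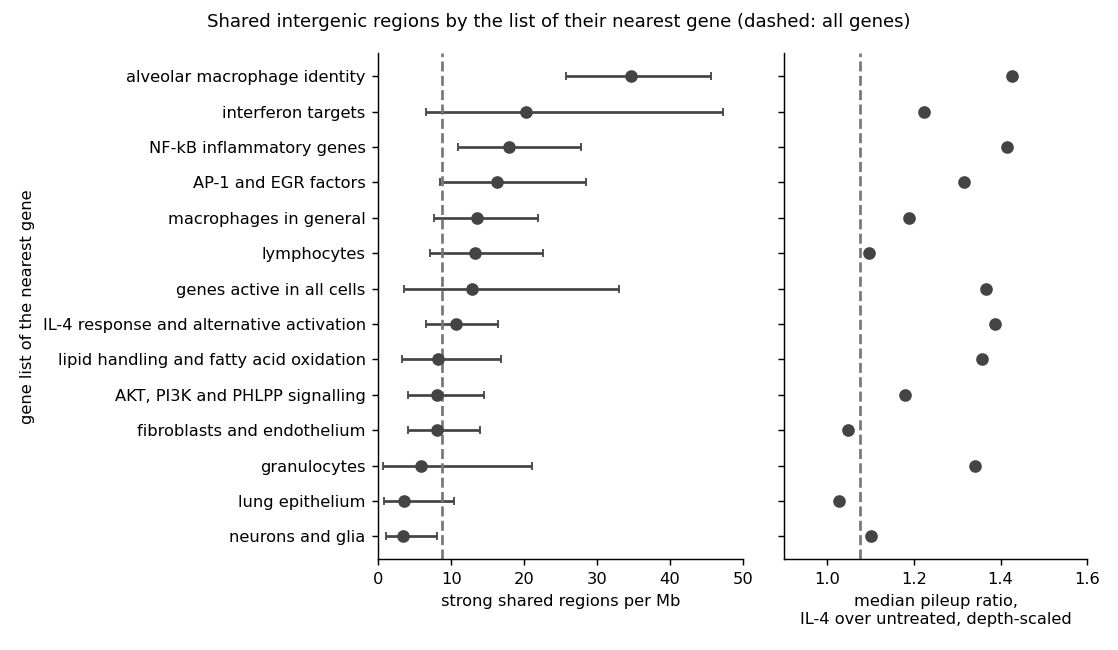
Strong shared intergenic regions per Mb of sequence nearest to the genes of each list, with exact 95% Poisson intervals (left), and the median depth-scaled pileup ratio, IL-4 over untreated, of all shared intergenic regions of the list (right). Dashed lines give all genes, 8.69 per Mb and a ratio of 1.08, and alveolar macrophage identity genes stand highest in both panels, at 34.7 and 1.43, although without Cebpb they come to 27.6 and to 1.40, below the 1.41 of NF-kB genes.

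Of the 30 alveolar macrophage identity genes, 21 were nearest to a shared intergenic region, 70.0%, with 103 regions in all. The share was 38.2% of all genes and 52.8% of those with any sequence at 5 to 100 kb. The highest or strongest region of a gene is the one of highest fold with IL-4. This choice favours high ratios. By distance, median ratios were 1.51 to 1.59 among regions of IL-4 fold 5 or more and 1.02 to 1.05 at fold under 3. Among regions of untreated fold 5 or more the median was 1.15. The ratios of strongest regions are given as a description only. The strongest of the 103 lay 17.2 kb downstream of Csf2ra, which encodes the GM-CSF receptor α chain, and had a fold of 13.99 with IL-4 and 11.3 without, from pileups of 238 and 168 fragments. Its depth-scaled ratio was 1.24 (1.01 to 1.52). The transcription factor gene Cebpb had the longest row, 24 regions, of which 13 were strong. A ratio above 1 was found in 23 of the 24, beside 63.7% of all shared intergenic regions. The top fold of the row was 5.86 with IL-4 and 5.91 without. Local background with IL-4 was 1.74 times the constant one at the median of the Cebpb regions, and 6 of them had a local background over 2 times the constant one in a library. The highest of them, 33.2 kb downstream, had a pileup of 151 fragments with IL-4 and 70 without, a ratio of 1.89 (1.42 to 2.55), and its local background with IL-4 was 1.57 times the constant one. The Cebpb regions 63.4 and 69.4 kb downstream had more fragments and smaller ratios. The nearer had 192 with IL-4 and 117 without, a ratio of 1.44, and the farther had 176 with IL-4 and 121 without, a ratio of 1.28.

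Surface markers of alveolar macrophages were among the genes with several strong regions. Plet1 had 12 regions, 7 of them strong, and the highest, 41.7 kb upstream, stood at 129 fragments with IL-4 and 56 without, a ratio of 2.02 (1.46 to 2.82). The scavenger receptor gene Marco had 13 regions, 6 of them strong, the highest with a fold of 5.36 with IL-4 and 3.82 without. Siglecf, a sialic acid-binding lectin gene, had only 1 region, which was not strong, with 80 fragments with IL-4 and 37 without. The ribonuclease genes Ear1, Ear2 and Ear10, whose regions had folds of 6.58, 6.35 and 6.68 with IL-4 and 4.02, 3.75 and 4.16 without, are near-identical copies, so that fragments may have been placed at the wrong copy. Car4, a carbonic anhydrase, had 1 region of equal pileup, 38 fragments in each library, which is a depth-scaled ratio of 0.877. Fabp4 and Itgax, whose surroundings came to 12.8 and 7.16 kb, had none.

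Of all genes with any sequence at 5 to 100 kb, 52.8% were nearest to a shared intergenic region. Among 34 IL-4 response genes, 24 were, 70.6% beside 38.2% of all genes and 85.7% of the fibroblast and endothelium list. The strongest lay 10.4 kb upstream of Stat6, the factor that carries the IL-4 signal to DNA, and its other neighbour Lrp1 was about as near, also at 10.4 kb. It had 158 fragments with IL-4 and 88 without, a fold of 8.44 and 5.97 and a ratio of 1.57 (1.21 to 2.07). A region 42.3 kb from Bhlhe40, a repressor of the basic helix-loop-helix family, had 139 fragments with IL-4 and 49 without, a ratio of 2.49 (1.78 to 3.52), and 5 of its 6 regions were at least 1.5 times higher with IL-4. Both Irf4 regions, 12.2 and 10.3 kb upstream, passed that limit too: the first had 96 fragments with IL-4 and 43 without, and the second had 88 with IL-4 and 35 without. Irf4 encodes a factor of alternative activation downstream of STAT6.

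Il4ra, the receptor chain for IL-4, had 4 regions, and the one 9.17 kb downstream, 14.1 kb from Il21r, had 73 fragments with IL-4 and 27 without, a ratio of 2.37 (1.51 to 3.84). Socs2, a feedback inhibitor of cytokine signalling, had 1 region, with 53 fragments with IL-4 and 25 without. Other regions of the list had smaller ratios. The one 52.1 kb upstream of Igf1, a growth factor gene of alternatively activated macrophages, had 131 fragments with IL-4 and 83 without, the one 13.6 kb downstream of Pdcd1lg2 (the PD-1 ligand PD-L2) had 154 with IL-4 and 92 without, and the one 90.9 kb upstream of Klf4 had 106 with IL-4 and 67 without. Pparg had 101 fragments with IL-4 and 64 without at 21.0 kb downstream.

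The textbook genes of alternative activation named here had weak regions or none. Arg1 (arginase 1) had 3 regions, none of them strong, and the highest had 39 fragments with IL-4 and 30 without, a ratio of 1.14 (0.690 to 1.90). Egr2 likewise had 3 weak regions, with ratios of 0.93, 1.18 and 0.79. Over all genes nearest to a region the median number was 2. Retnla, Chil3, Mrc1, Socs1 and Cish were nearest to no shared intergenic region, with 5 to 100 kb surroundings of 7.15 to 23.1 kb each. Neither were the lineage genes Csf1r and Spi1, whose 5 to 100 kb surroundings came to 5.25 and 0.966 kb. Over all genes there were 46.4 regions per Mb, so that having none in so little sequence says little about these genes. Cebpa had 3 and Bhlhe41 had 2, none of them strong.

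**Figure D5:**
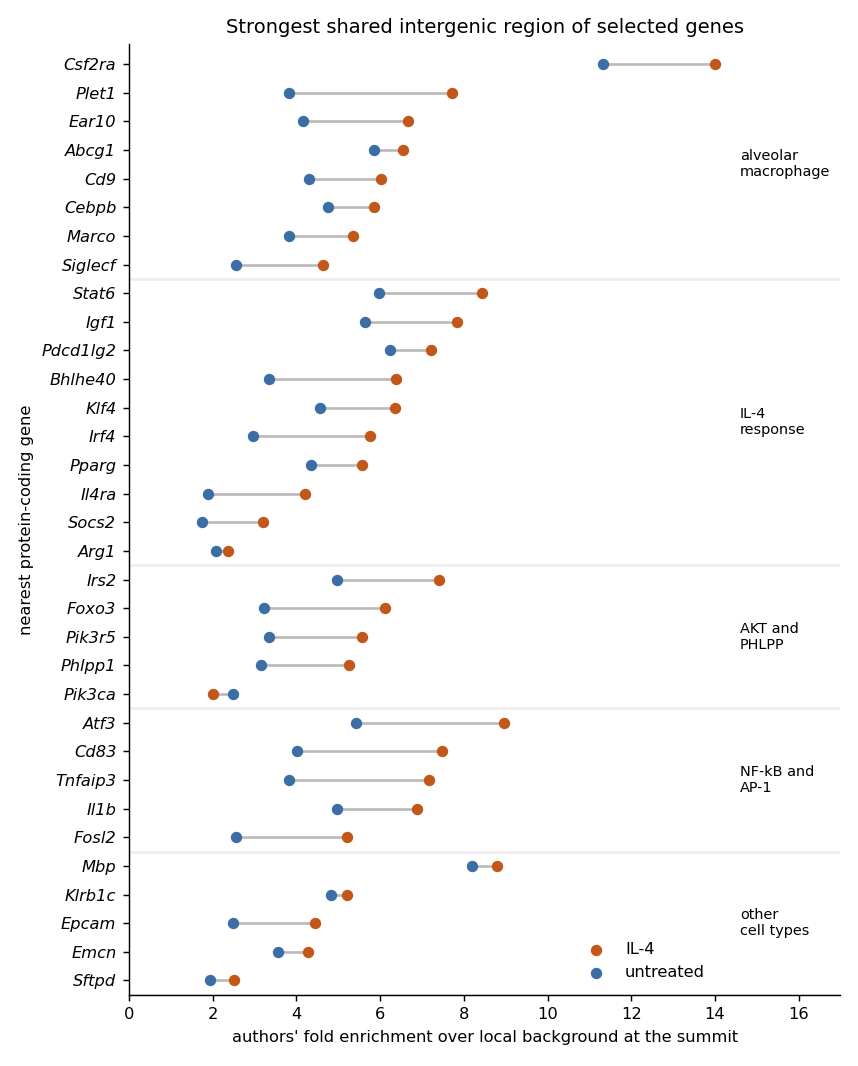
Fold enrichment (x axis) of the strongest shared intergenic region, that of highest IL-4 fold, of selected genes (y axis) with IL-4 (orange) and without (blue), grouped by list. Choosing by IL-4 fold favours regions higher with IL-4. The points of Bhlhe40 stand at 6.38 with IL-4 and 3.35 without, those of Arg1 at 2.37 and 2.08.

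Of the 26 AKT, PI3K and PHLPP genes, 14 were nearest to a region, 53.8%. The share was 38.2% of all genes and 52.8% of those with any sequence at 5 to 100 kb. The 26 genes had 59 regions, 43.4 (33.1 to 56.0) per Mb beside 46.4 over all genes. Of the 59 regions, 11, 18.6%, were at least 1.5 times higher with IL-4, beside 9.86% of all shared intergenic regions. Irs2, the adaptor that links the IL-4 and insulin receptors to PI3K, had 15 regions, 6 of them strong. The highest, 6.45 kb upstream, had 124 fragments with IL-4 and 73 without, a ratio of 1.49 (1.11 to 2.02). The strongest region of Phlpp1 itself, 13.7 kb downstream, had 91 fragments with IL-4 and 46 without, a ratio of 1.73 (1.204 to 2.53), and was the only strong one of its 5. Phlpp2, its paralog, had no sequence at 5 to 100 kb for which it was nearest, and no region.

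Genes acting on or after AKT also had regions. Foxo3, a transcription factor that AKT keeps out of the nucleus, had a region 58.6 kb downstream with 103 fragments with IL-4 and 47 without, a ratio of 1.92 (1.35 to 2.77). The PI3K subunit genes Pik3r5 (93 fragments with IL-4 and 49 without) and Pik3cg (71 with IL-4 and 29 without) were likewise past 1.5 times. Pik3ca, a catalytic PI3K subunit gene, had a weak region with 33 fragments with IL-4 and 36 without. The list thus held regions on either side of a ratio of 1.

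Of 24 NF-kB inflammatory genes, 15 had a region, 62.5% beside 38.2% of all genes. Per Mb of their surroundings they had 41.4 (30.3 to 55.2) shared intergenic regions, beside 46.4 over all genes. Of the 46 regions, 20 were at least 1.5 times higher with IL-4, 43.5% beside 9.86% of all shared intergenic regions. Strong regions also numbered 20, 43.5% beside 18.7% of all shared intergenic regions. Other lists had similar shares past 1.5: alveolar macrophage genes 39.8%, IL-4 response genes 37.5%, AP-1 and EGR factors 36.6% and genes active in all cells 35.0%. Lung epithelium had 6.67%. At untreated fold 3 or more, 6 of 16 NF-kB regions passed 1.5, beside 18.6% of shared intergenic regions. The region 57.0 kb downstream of Tnfaip3, which encodes the NF-kB brake A20, had 120 fragments with IL-4 and 56 without, a ratio of 1.88 (1.36 to 2.63). The one 61.2 kb from the maturation marker gene Cd83 had 138 with IL-4 and 59 without, a ratio of 2.05 (1.502 to 2.83). The cytokine gene Il1b had 115 with IL-4 and 73 without, a smaller difference, and the chemokine gene Ccl2 had 75 with IL-4 and 28 without. Atf3, a stress factor of the AP-1 family, had 161 fragments with IL-4 and 80 without at 46.9 kb upstream.

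Fosl2 had the largest ratio of the AP-1 and EGR list, with 110 fragments with IL-4 and 37 without 23.4 kb upstream, 2.61 (1.78 to 3.89). Of the 22 autosomal interferon targets 7 had a region, 31.8% beside 38.2% of all genes. Among lipid genes, the lipid droplet coat gene Plin2 had 137 fragments with IL-4 and 69 without, and the cholesterol exporter gene Abcg1 had 175 with IL-4 and 88 without. The highest folds of the Abcg1 regions, 6.56 with IL-4 and 5.86 without, were closer than these pileups. Runx1, a blood cell factor of the general macrophage list, had 178 with IL-4 and 68 without 25.8 kb upstream, a ratio of 2.30 (1.73 to 3.08).

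Markers of other cell types differed between lists. Of 24 lung epithelium genes 13 had regions, 60 in all, of which 3 were strong and 4 were at least 1.5 times higher with IL-4. The highest region of Epcam had 74 fragments with IL-4 and 36 without, and that of the surfactant gene Sftpd had 42 with IL-4 and 28 without, although the median ratio over the 3 Sftpd regions was 0.930. The median ratio was also below 1 for the lung transcription factor genes Foxa2 (24 regions, 0.928) and Nkx2-1 (8 regions, 0.945) and for the tight junction gene Cldn18 (6 regions, 0.921). Of 21 fibroblast and endothelium genes, whose 5 to 100 kb surroundings came to 1.499 Mb, 18 had regions, 85.7% of the list. Of the 89 regions of this list 12 were strong, 13.5% beside 18.7% of all shared intergenic regions. The myelin gene Mbp stood apart among neuron and glia genes with 243 fragments with IL-4 and 160 without, and the lymphocyte gene Klrb1c had 87 with IL-4 and 71 without. Lymphocyte genes as a list had more regions per Mb than all genes, 72.1 (56.3 to 91.0) beside 46.4. In strength these regions were at the level of all: 13 of the 71, 18.3%, were strong, beside 18.7% of all shared intergenic regions. Their median fold with IL-4 was 2.31 beside 2.32.

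Among strong regions, the 10 largest ratios ran from 2.48 to 3.06, and all 10 had at least 116 fragments with IL-4 and at most 49 without. The genes nearest to them included Rnf19b, an E3 ubiquitin ligase gene (150 fragments with IL-4 and 43 without, ratio 3.06, 2.17 to 4.40), the clock repressor gene Cry1 (138 with IL-4 and 40 without), the zinc finger gene Rreb1 (150 with IL-4 and 46 without), Arhgef37, Hmgn2, Tagap, Thumpd3, Bhlhe40 and Lrrc32. The region of Rnf19b had a local background 1.94 times the constant one with IL-4. At the other end, the 10 smallest ratios ran from 0.386 to 0.626. The lowest lay 41.1 kb upstream of Slc16a14, with 70 fragments with IL-4 and 159 without, and all 25 regions of this gene had a local background over 2 times the constant one in a library. Ankrd66 followed among named genes with 47 with IL-4 and 75 without, near Pla2g7 at 10.7 kb on its other side. Of these 10, 3 (near Vmn1r2, Gm21149 and Speer4c) had a local background over 3 times the constant one.

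The regions of highest fold were nearly equal in the libraries. The 10 highest ran from 25.03 to 40.9 with IL-4 and 23.3 to 40.5 without, with ratios of 0.773 to 1.19, and lay nearest to genes such as Tmem196, Rpusd4, Mrgprd, Tcp10c and Rfc3. At Rpusd4, 7569 fragments were stacked with IL-4 and 7937 without, over a local background 12.6 times the constant one. In 678 shared intergenic regions, 2.32%, the local background was over 2 times the constant one in a library, and their median ratio was 0.975. Also among regions of low local background the highest folds, such as 27.2 with IL-4 and 29.0 without near Rfc3 and 23.1 with IL-4 and 23.5 without near Adgre5, came with ratios near 1. Whether such stacks come from repeated sequence was not tested.

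Many of the densest rows were near gene families of many similar copies, which were picked after their values were seen. The Speer4 genes had 63 regions, 147 (113 to 188) per Mb beside 46.4 over all genes, with a median ratio of 0.905, and 57 of them had high local background. The Pramel genes had 155 regions, 112 (94.8 to 131) per Mb and a ratio of 0.877, the Zfp genes of chromosome 4 had 164, 132 (113 to 154) per Mb and 0.937, and the prolactin (Prl) family had 77, 60.3 (47.6 to 75.3) per Mb and 0.966. The Prl density came from few genes: 4 of 25 had a region, 16.0%, and of the 77 regions Prl2c3 had 46 and Prl2c2 had 29. Of the 45 Pramel genes 14 had a region, 31.1%. Over all genes the share was 38.2%. The Tdpoz genes had 54 regions with a ratio of 0.957 and the Obox genes 47 with 0.912, of which 33 were nearest to Obox2. The β-defensin (Defb) genes had 45 regions with a ratio of 1.00. Vomeronasal receptor genes (Vmn1r and Vmn2r), also a large family, had 17.6 (15.5 to 19.9) per Mb. Fragments from similar copies cannot be placed with certainty, and these values are uncertain for that reason.

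Outside these families, several genes had many strong regions of low local background. Tomm20, a mitochondrial import receptor gene, had 18 regions with 14 strong and a median ratio of 1.41, and Ets2, an ETS family factor gene, had 20 regions with 9 strong and a ratio of 1.05. Dnttip2 (8 strong of 10, ratio 1.54), Litaf, an LPS-induced gene (6 of 11, ratio 1.67), Mdm1 (6 of 9, ratio 1.40), Ero1b (6 of 9, ratio 1.499), Nucb2 (7 of 10, ratio 1.16) and the small GTPase gene Rhob (6 of 12, ratio 1.12) followed. Atg7, an autophagy gene, was among the 10 densest genes, with 20 regions in 74.9 kb and a median ratio of 1.47, but 3 of the 20 were strong and 18 had high local background. Slc16a14, also among the densest, had 25 regions, all of high local background, with a median ratio of 0.899.

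Some of the regions were intergenic only with regard to protein-coding genes. A non-coding gene or pseudogene overlapped 6357 of them, 21.8% (21.3% to 22.2%), and a lncRNA gene 5151, 17.6%. The share with a lncRNA gene was 16.6% (16.2% to 17.1%) at IL-4 fold under 3, 21.3% (20.2% to 22.5%) at fold 3 to 5 and 23.7% (20.9% to 26.5%) at fold 5 or more. A lncRNA start lay inside 304 regions, 1.04%, and inside 5.51% (4.13% to 7.18%) of those of fold 5 or more. The median ratio of these 304 was 1.33, with a median fold of 3.20 with IL-4 and 2.49 without.

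RefSeq gene models of 15 miRNA genes overlapped 13 shared intergenic regions, and 13 hairpins of the miRNA sequence table lay in or across 11 of them. A pair of them belong to the let-7 family, whose members share the seed printed in capitals (bases 2 to 8 of the mature RNA, RefSeq, GRCm38.p6).
mmu-let-7i-5p: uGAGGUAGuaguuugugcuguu
mmu-let-7b-5p: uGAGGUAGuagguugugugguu
The region over Mirlet7i, 5.55 kb from Mon2, had 54 fragments with IL-4 and 34 without. The one over Mirlet7b, 27.4 kb from Ppara, had 76 with IL-4 and 42 without, but its folds of 2.39 with IL-4 and 2.14 without were close, since its local background with IL-4 was higher too. The hairpin Mir7671 lay inside the strong region 5.65 kb upstream of Irf1, an interferon factor gene, with folds of 5.86 with IL-4 and 5.50 without. Its pileups were 166 fragments with IL-4 and 97 without, a depth-scaled ratio of 1.501.

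The distance and overlap limits cut through similar regions. The regions just inside were 5000 bp from Fam107a (fold 2.01 with IL-4 and 1.77 without) and 99999 bp from Runx1t1 (1.90 with IL-4 and 1.88 without). Just outside lay one 4999 bp from Fth1, the ferritin heavy chain gene, with 5.82 with IL-4 and 5.50 without, and one 100015 bp from Cox7b2 with 2.02 with IL-4 and 2.82 without. In 6 regions the overlap was 1 bp and in 96 it was under 10 bp. Of the 36777 IL-4 regions at this distance with no overlap, 41 had an untreated region less than 10 bp away and 6971, 19.0%, less than 1000 bp away.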

How the data were processed

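PHLPP1 CUT&Tag of mouse alveolar macrophages gave 1 list of regions per library, with coordinates in mm10. Bowtie 0.12.8, MACS2 2.2.7.1 and DiffBind are named per the submitters' processing notes, without roles. Caller settings are not stated. The deposited columns were a whole-number score, the authors' fold enrichment (a ratio of summit pileup to background), −log10 p and −log10 q. The whole lists held 226476 IL-4 and 165968 untreated regions. Read depth is not stated. Pileup and background were recovered from the authors' fold and p, whole within 0.05 for 100% of regions, with a constant background of 15.9 fragments with IL-4 and 13.9 without (quotient 1.14). Shares have exact Clopper-Pearson and counts exact Poisson 95% intervals, for counting error only.

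Where several untreated regions overlapped, that of highest fold was used. Scripts, tested on simulated data, ran in Python 3.11.15 (scipy 1.17.1, pandas 2.3.3). Genes and sequences came from RefSeq (GRCm38.p6), with 339 of 344 list entries matched to autosomal protein-coding genes. Members and gene lists were chosen with earlier results of these data known. Named genes were a set of IL-4 and macrophage genes, the genes of each list with the highest IL-4 fold, and the 10 extremes of fold, ratio, number and density; others were chosen after their values were seen, and a few are not reported here. Alternatives changed the q limit, overlap, background, gene set, list length, distance and scaling. The pattern search at summits was not run without a genome and was made on lncRNA promoter windows after the data were seen.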

Additional observations from a re-analysis of the deposited data

How the results depend on the processing

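No paired analysis was possible because each group held 1 library, and leaving out a replicate could not be done. Requiring a −log10 q of at least 5 in both lists left 5469 regions, of which 17.4% were past a 1.5-fold ratio; 29.0% of IL-4 regions overlapped, the density quotient (5 to 20 over 50 to 100 kb) was 1.37, the median ratio 1.10, and 16.2% of genes were nearest to a region. With a reciprocal overlap of 50% the overlap was 34.0%, the share past 1.5-fold 10.3% and the genes 35.0%. Without regions of high local background the overlap was 43.7%. Distance to every annotated gene, with no overlap of any, gave an overlap of 45.3%, a density quotient of 1.77, a median ratio of 1.05, 6.83% past 1.5-fold and 20.6% of genes. With the IL-4 list shortened to the untreated length these were 51.0%, 1.10, 1.12, 11.8% and 36.2%. At 10 to 100 kb the overlap was 44.8%, the median ratio 1.07, the share past 1.5-fold 8.94% and the genes 31.8%. Pileups not scaled for depth gave a median ratio of 1.23 with 20.4% past 1.5-fold, and the authors' fold enrichment 1.045 with 6.31%. The cause of these moves was not tested, except that fewer regions or genes entered. The median ratio stayed above 1 in each of these alternatives, and so did the density quotient in those that gave one (not the changes of pileup scaling or fold). The ratios of the 15 always-named genes with a region were identical when the untreated region of largest overlap was used, so that this alternative did not put them to a test. Strong regions per Mb of alveolar macrophage genes were 31.9 without high local background (added after seeing the data), beside 8.004 for all genes.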

Other observations

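Shared intergenic regions were slightly denser downstream of their nearest gene, with 49.0 (48.1 to 49.97) per Mb, than upstream, with 44.3 (43.5 to 45.1), among the 22647 regions whose nearest gene had a strand; strong regions numbered 9.05 (8.66 to 9.45) per Mb downstream and 8.66 (8.31 to 9.02) upstream. Chromosomes differed more. Chromosome 8 had 58.8 shared intergenic regions per Mb and chromosome 19 had 28.7, while chromosome 19 had the highest median ratio, 1.196, and chromosome 3 the lowest, 1.04. On chromosome 19, 19.2% of the regions were at least 1.5 times higher with IL-4, and on chromosome 18 it was 6.74%. Nothing was tested about these differences.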
